A study of Mus musculus with 6 samples.

Results

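The let-7 and miR-98 family is a group of microRNAs that share one seed, the short stretch near the 5′ end that pairs with target transcripts. Its members were taken by name: every miRNA name on the array whose stem is let-7a, let-7b, let-7c, let-7d, let-7e, let-7f, let-7g, let-7i or miR-98, with both arms of the precursor and with names that gave no signal. This rule took 16 of the 690 names on the array, 9 of them 5p arms and 7 of them 3p arms. The family was measured in sorted mouse cells from uninjured skin and from wounds.

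let-7 miRNAs are known as brakes on growth and on embryonic gene programmes. They repress transcripts such as those of the Ras proteins, Hmga2 and the RNA-binding protein Lin28, and Lin28 in turn blocks the maturation of let-7 precursors. They are abundant in most differentiated cells, fibroblasts included, and are made from many gene copies, several of which lie beside genes of the miR-99, miR-100 and miR-125 families.

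The 9 5p arms are shown because they carry all of the family's tested signal. The sequences are those of RefSeq for GRCm38.p6, which held a sequence for 16 of the 16 names, and the capitals mark the seed (bases 2 to 8).
mmu-let-7a-5p: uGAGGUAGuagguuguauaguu
mmu-let-7b-5p: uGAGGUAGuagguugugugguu
mmu-let-7c-5p: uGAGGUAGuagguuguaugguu
mmu-let-7d-5p: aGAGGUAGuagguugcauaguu
mmu-let-7e-5p: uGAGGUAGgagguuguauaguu
mmu-let-7f-5p: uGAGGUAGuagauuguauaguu
mmu-let-7g-5p: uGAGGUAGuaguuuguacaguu
mmu-let-7i-5p: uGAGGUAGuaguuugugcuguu
mmu-miR-98-5p: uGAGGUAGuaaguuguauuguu

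The prefix mmu- stands for mouse and is left out from here on. All 9 share the seed GAGGUAG and are 22 bases long, so they differ only outside the seed. Counted from 1 at the 5′ end and set against let-7a-5p, let-7c-5p differs by A19G alone, let-7e-5p by U9G alone and let-7f-5p by G12A alone. let-7b-5p differs by A17G and A19G, let-7d-5p by U1A and U16C, let-7g-5p by G12U and U18C, and miR-98-5p by G11A and A19U. let-7i-5p is the most distant from let-7a-5p, with G12U, A17G, U18C and A19U. Among the mature names of RefSeq, 11 of 1679 carry this seed. The other two are let-7k, a name that was not on the array, and miR-1961, which was on it, is no member by the rule and was well above background on 0 of 6 arrays.

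RefSeq holds 12 genes for the family at 8 places on 7 chromosomes. let-7d, let-7f-1 and let-7a-1 lie together on chromosome 13, and let-7f-2 and miR-98 lie 785 bases apart on chromosome X within the span of Huwe1. let-7c-2 and let-7b lie 621 bases apart on chromosome 15 within the span of a long noncoding gene, Lncppara. let-7g lies within the span of Wdr82 on chromosome 9 and let-7i stands alone on chromosome 10. The remaining genes lie in the clusters shared with miR-99, miR-100 and miR-125: let-7a-2 on chromosome 9, let-7c-1 on chromosome 16 and let-7e on chromosome 17. let-7a-5p, let-7c-5p and let-7f-5p are each made from more than one gene, so the array signal of these cannot be assigned to one place.

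The cells came from transgenic SMA-GFP mice, in which GFP reports the activity of the smooth muscle actin (SMA) gene, a marker of contractile cells. In both groups cells with CD45 (blood cells) or CD31 (endothelium) on their surface had been removed by sorting. The first group was GFP-low cells of skin, described by the submitters as fibroblast-like, and the second was GFP-high cells of wounds 7 days after injury, described as myofibroblasts. Each group had 3 preparations with 1 Cy3-labelled array each, and the labels number the skin preparations 1, 2 and 5 and the wound preparations 3, 4 and 6. The age of the mice, and whether the preparations came from separate animals, are not given in the sources used here. The p-values therefore rest on the variation among preparations alone, some of which may be technical. Each difference covers tissue and GFP level at once, since one never varied without the other, and in sorted pools fewer cells that make a miRNA and less of it per cell cannot be told apart.

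A miRNA was called well above background on an array when over 50% of the spots of at least 1 of its probes carried the scanner's flag. Between 187 and 224 names were so on a skin array and between 211 and 233 on a wound array. Levels are log2 of the background-subtracted signal relative to each array's 75th percentile, taken over probes that were well above background everywhere. They were held at a floor of -5.30, and 222 names were tested. Across these miRNAs, which are not independent replicates, Pearson's r was 0.985 to 0.992 for arrays of the same group and 0.846 to 0.882 for a skin array with a wound array. Of 8 mesenchymal and smooth muscle names 6 were well above background on all arrays. miR-143-3p (1.24) and miR-145a-5p (0.65) were called higher in wound, and miR-199a-3p (-0.62) and miR-199b-5p (-0.75) lower. The summed share of that list was 6.40% to 8.21% in skin and 3.48% to 4.21% in wound, lower in wound like the share of the let-7 family given further on. Of 12 keratinocyte names only miR-203-3p and, likewise, miR-205-5p were well above background, on 3 skin arrays and 0 wound arrays, and the list's share of the summed signal was 0.0378% to 0.0572% in skin and 0.00124% to 0.00231% in wound. Of 7 blood cell names only miR-451a was so, on 2 skin arrays, of 8 striated muscle names none, and endothelial miR-126-3p was so on 6 of 6 arrays with no call (log2 difference 0.50, limma adjusted p = 0.110). The part of these markers in the family's differences was not tested.

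The comparison asked whether the family stood at another level in the GFP-high wound cells than in the GFP-low skin cells. In the wound cells 6 of the 9 tested members were lower, let-7e-5p was higher, and let-7d-5p and let-7i-5p did not pass (limma, Benjamini-Hochberg adjusted p under 0.05 over 222 miRNAs). Of all tested miRNAs 64.9% were called, 20.7% lower and 44.1% higher. The groups did not overlap for 7 of the 9 members and for 69.8% of all tested miRNAs. The median log2 difference, wound minus skin, was -0.40 over the 9 members and 0.38 over all tested miRNAs, and 8 of the 9 members lay below the latter. These counts change with how the arrays are scaled, as given further on, and the within-array comparisons that come after them are free of the factor by which an array is scaled. The 9 5p arms were well above background on 6 of 6 arrays, so none passed the filter through one group alone.

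**Figure D1:**
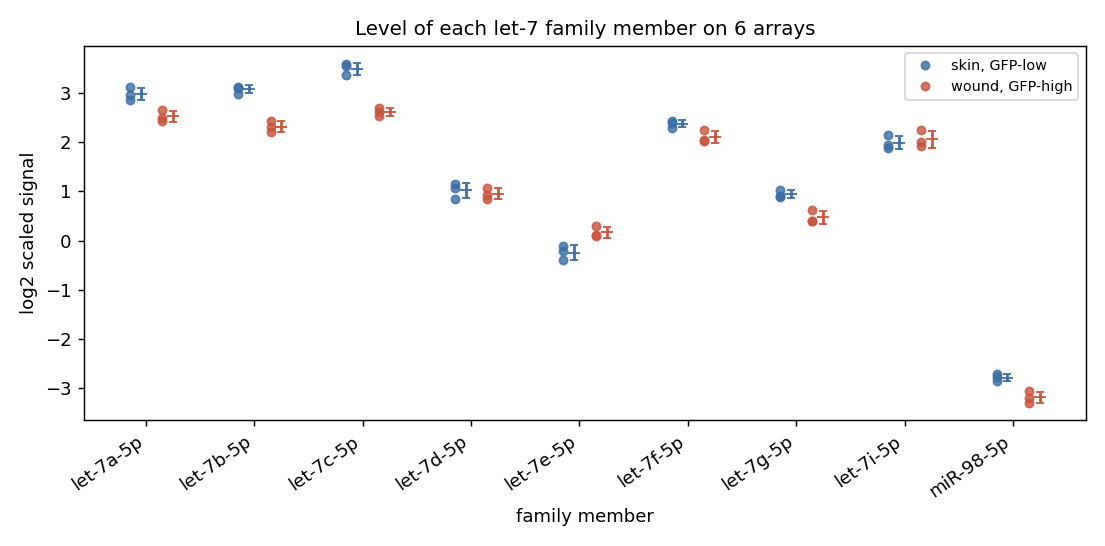
Log2 scaled signal (vertical axis) of the 9 tested family members (horizontal axis) on 3 skin arrays (blue) and 3 wound arrays (red); each point is 1 array and the bars give mean ± SD. The groups are apart for 7 members, lower in wound for 6 and higher for let-7e-5p, and they overlap for let-7d-5p and let-7i-5p; heights of different members are not comparable, because probes differ in brightness.

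let-7c-5p, made from the chromosome 15 and chromosome 16 genes, had the largest decrease of the family. Its log2 level was 3.36, 3.58 and 3.54 on skin arrays 1, 2 and 5, and 2.61, 2.69 and 2.52 on wound arrays 3, 4 and 6. All skin values lay above all wound values. The difference was -0.88 (SE 0.08, adjusted p = 0.000377), a 1.85-fold lower signal in the wound cells.

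let-7b-5p, encoded beside let-7c-2 and 1 base different from let-7c-5p, was next. It measured 2.98, 3.13 and 3.11 in skin and 2.30, 2.44 and 2.21 in wound, again with no overlap. The difference was -0.76 (SE 0.08, adjusted p = 0.00060), or 1.69-fold.

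let-7g-5p and let-7a-5p fell by similar amounts. let-7g-5p, whose gene lies within the span of Wdr82, measured 0.88, 0.91 and 1.04 in skin and 0.40, 0.63 and 0.40 in wound (difference -0.47, SE 0.09, adjusted p = 0.0063). let-7a-5p measured 2.86, 3.12 and 2.96 in skin and 2.49, 2.65 and 2.44 in wound (difference -0.45, SE 0.09, adjusted p = 0.00921). For both, the lowest skin array stood above the highest wound array. Without wound preparation 3 the call of let-7a-5p was lost (-0.43, adjusted p = 0.0620).

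miR-98-5p and let-7f-5p, whose genes include a pair on chromosome X, were lower as well. miR-98-5p measured -2.86, -2.71 and -2.78 in skin and -3.29, -3.06 and -3.19 in wound (difference -0.40, SE 0.08, adjusted p = 0.0073). With normexp background correction the sign of miR-98-5p turned (0.77) and it did not pass (limma adjusted p = 0.245). let-7f-5p, which also has a gene on chromosome 13, measured 2.29, 2.43 and 2.40 in skin and 2.02, 2.25 and 2.04 in wound. Its groups were apart by only a narrow margin, and its difference of -0.27 (SE 0.08, adjusted p = 0.0356) was the smallest that was called. That call was lost when any one of 5 arrays was left out, all but wound preparation 4 (adjusted p up to 0.160), and under quantile normalization (-0.02). It was also lost with a floor 4 times as high (adjusted p = 0.0717) or as low (0.0573). The same held for a filter on all arrays (0.0582), no filter on dim miRNAs (0.166) and normexp background correction (0.211).

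let-7e-5p went the other way. It measured -0.40, -0.11 and -0.22 in skin and 0.10, 0.29 and 0.11 in wound, with every wound array above every skin array. The difference was 0.41 (SE 0.10, adjusted p = 0.0158), or 1.33-fold. Without skin preparation 1 it was 0.35 (adjusted p = 0.0659) and without wound preparation 3 it was 0.45 (adjusted p = 0.0524), and neither passed. The call was also lost with the total signal per miRNA (0.15, limma adjusted p = 0.494) and with no filter on dim miRNAs (0.0894). The same held for normexp background correction (0.400), and the scalings that turned its sign are given further on.

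let-7d-5p and let-7i-5p had overlapping groups. let-7d-5p, the member whose first base is A, measured 0.84, 1.15 and 1.08 in skin and 0.92, 1.07 and 0.86 in wound. Its difference was -0.07, with a 95% confidence interval from -0.34 to 0.20 (adjusted p = 0.594). let-7i-5p measured 1.94, 1.89 and 2.15 in skin and 2.00, 2.26 and 1.93 in wound, a difference of 0.07 with an interval from -0.23 to 0.37 (adjusted p = 0.636). Neither interval reaches the difference of let-7c-5p.

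The 7 3p arms were not tested. let-7a-1-3p, let-7b-3p, let-7c-1-3p, let-7f-1-3p, let-7g-3p and let-7i-3p were well above background on 0 of 6 arrays. let-7d-3p, the passenger arm of the let-7d precursor, was so on 1 skin array and 0 wound arrays, and its mean over probes stayed at the floor everywhere. No direction can be given for any of them.

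Each tested member had 2 probes, and both probes of each called member moved to the same side. For let-7e-5p the probes gave 0.33 and 0.56, and for let-7c-5p -0.78 and -0.92. The 2 probes of let-7d-5p disagreed in sign, at -0.13 and 0.10. Differences between probes of one member ranged from 0.02 for let-7f-5p to 0.24 for let-7d-5p. The median SD within a group was 0.11 over the family and 0.14 over all tested miRNAs.

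By the position numbers in their barcodes, the arrays lay on 1 slide in 2 rows, each of which held both groups. Array 3 was the only wound array of its row and array 5 the only skin array of the other. The family's median difference was -0.49 within the row of arrays 1, 2 and 3, -0.35 within the row of arrays 4, 5 and 6, and -0.43 with the row as a block. let-7e-5p differed by 0.35 and 0.42 within the 2 rows, and let-7c-5p by -0.86 and -0.93. With the row as a block 6 members were called lower and 1 higher, where 19.4% and 43.7% of all tested miRNAs were.

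The share of each array's summed signal that fell to the family does not depend on how an array is scaled. The 16 names held 12.2%, 12.2% and 14.5% of the signal in skin and 5.93%, 7.93% and 7.05% in wound, with no overlap between groups. The mean went from 13.0% ± 1.33 (SD, n = 3) to 6.97% ± 1.00. The exact two-sided permutation p was 0.1, the smallest that 3 against 3 arrays allow. Much of the remaining signal came from 33 names that carry an old registry version, which held 56.7% ± 4.53 of the total in skin and 71.8% ± 3.01 in wound. Without those names the family held 29.4% to 30.6% in skin and 23.7% to 25.6% in wound (exact permutation p = 0.1), and the groups were again apart.

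Dividing an array by another constant moved all members by the same amount, and quantile normalization did not: it took miR-98-5p from -0.40 to -1.02 and let-7f-5p from -0.27 to -0.02. The median difference over all tested miRNAs shifted from the main value by -0.57 when the 75th percentile was taken over every probe, by -0.38 under median scaling, by -0.35 with quantile normalization and by -0.47 with no scaling. Where the scaling was by a constant, the members moved by more than that median. let-7c-5p, at -0.88 in the main setting, was at -1.57 with the 75th percentile of all probes, -1.29 with median scaling and -1.47 with no scaling. With the 75th percentile of all probes 8 members were called lower and 0 higher, where 34.2% and 23.4% of all tested miRNAs were. With median scaling 8 were lower and 0 higher, against 29.7% and 29.7% of all. Quantile normalization gave 5 lower and 2 higher, against 32.0% and 34.7%, and no scaling gave 6 lower and 0 higher, against 24.3% and 24.3%. Of all called miRNAs, 68.1% were higher in the main setting and 40.6%, 50.0%, 52.0% and 50.0% in these 4. let-7a-5p, let-7b-5p, let-7c-5p, let-7g-5p and miR-98-5p were called lower under 5 of 5 scalings, main included. let-7e-5p was called higher under 2 of them and took values down to -0.28, so its direction against skin turned with the scaling. let-7i-5p was called lower under 2 and higher under 1, and let-7d-5p was called lower under 2.

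**Figure D2:**
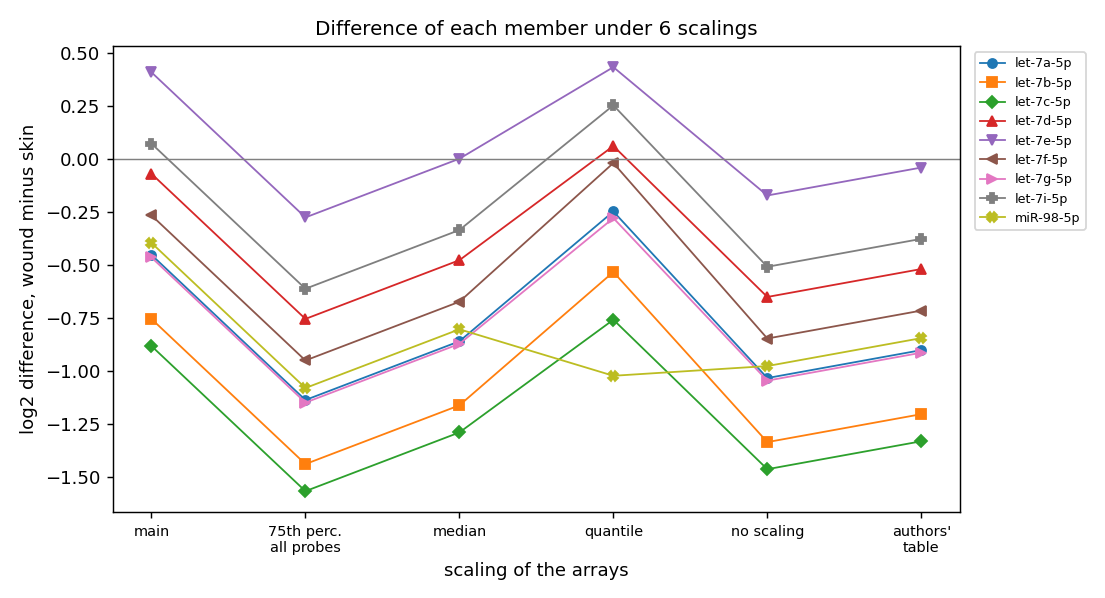
Log2 difference, wound minus skin (vertical axis), of the 9 tested members under 5 scalings of the scanner signals and in the authors' deposited log2 table with columns matched by value (horizontal axis); each line joins the values of 1 member. let-7e-5p is the highest in each setting shown, from 0.43 to -0.28, and let-7c-5p the lowest except under quantile normalization, where miR-98-5p is at -1.02.

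The authors' deposited table of log2 values placed each member lower than the main setting did. Its column numbers match the array titles for 0 of 6 columns, but each column equals the log2 total signal of 1 array minus a constant. Matched by value, 8 members were lower and 0 higher in limma, where 31.7% and 33.2% of all tested miRNAs were, with a median of -0.85, let-7c-5p at -1.33 and let-7e-5p at -0.042. Read by column number instead, which mixes the arrays of both groups, the table gave 0 calls among members in limma, with 0 members at an unadjusted p under 0.05.

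Members were also compared with each other on the same array, which asks whether they changed unequally. Each value was set against the mean of the 9 members on that array and the whole table was refitted. let-7e-5p rose by 0.72 against the family mean (SE 0.08, adjusted p = 0.000235), let-7i-5p by 0.38 (SE 0.10, adjusted p = 0.0136) and let-7d-5p by 0.24 (SE 0.08, adjusted p = 0.0329). let-7c-5p fell by 0.57 (SE 0.08, adjusted p = 0.000711) and let-7b-5p by 0.44 (SE 0.08, adjusted p = 0.00204). let-7a-5p, let-7f-5p, let-7g-5p and miR-98-5p did not pass, with differences between -0.15 and 0.05. With quantile normalization 7 members were called, since miR-98-5p was then at -0.79 (adjusted p = 0.000746) and let-7f-5p at 0.22 (adjusted p = 0.0429). On this scale 77.0% of all tested miRNAs were called, 14.0% lower and 63.1% higher. The reference is the mean of the members themselves, so their 5 of 9 cannot be set against these shares.

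Set against the mean of the other members, let-7e-5p stood at -1.93, -1.80 and -1.90 in skin and at -1.08, -1.08 and -1.04 in wound. This was a step of 0.81 against an SD of at most 0.07 in either group. let-7c-5p stood at 2.29, 2.35 and 2.32 in skin and 1.74, 1.62 and 1.67 in wound, a step of -0.64. The groups were apart for 79.7% of all tested miRNAs set against the family mean, a share with the same limit as those above. They were apart for 7 of the 9 members set against the other members, and let-7f-5p and miR-98-5p overlapped. The exact two-sided permutation p was 0.1 for each of the 7, the smallest possible, and 0.129 after Benjamini-Hochberg adjustment over 9. Levels of different members come from different probes, so only the step between the groups is read here.

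**Figure D3:**
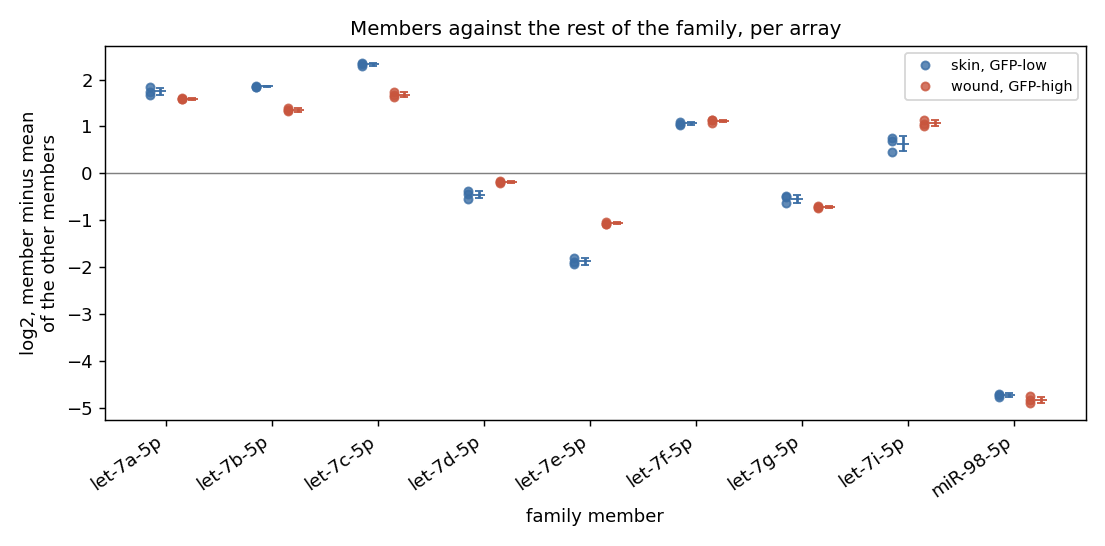
Log2 signal of each member minus the mean of the other members on the same array (vertical axis), for the 9 tested members (horizontal axis), on 3 skin arrays (blue) and 3 wound arrays (red) with mean ± SD. let-7e-5p stepped up by 0.81 and let-7i-5p by 0.43, while let-7c-5p stepped down by 0.64 and let-7b-5p by 0.50.

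The step of let-7e-5p against the family mean lay between 0.67 and 0.76 over 14 alternatives. It lost its call only with normexp background correction (0.74, adjusted p = 0.107), where 0 members and 9.01% of all tested miRNAs were called (2 members at an unadjusted p under 0.05). The step of let-7d-5p was called in 7 of the 14 and that of let-7i-5p in 13. let-7e-5p had the highest difference of the 9 members in 23 of 24 settings and let-7c-5p the lowest in 23 of 24. The exceptions were miR-98-5p, highest with normexp and lowest under quantile normalization.

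Members whose sequences lie 1 base apart were also compared on the same array. Of the 36 pairs of members, 4 are 1 base apart by the sequences shown above. The log2 ratio of let-7a-5p to let-7e-5p, which differ by U9G, was 3.26, 3.23 and 3.18 in skin and 2.39, 2.36 and 2.33 in wound, a step of -0.86 (SE 0.03). The ratio of let-7a-5p to let-7c-5p, which differ by A19G, stepped by 0.43 (SE 0.04), from -0.50, -0.46 and -0.58 to -0.12, -0.04 and -0.09. let-7a-5p to let-7f-5p stepped by -0.19 (SE 0.05) and let-7b-5p to let-7c-5p by 0.13 (SE 0.03). The groups were apart in each of these 4 pairs and in 32 of the 36, where 73.5% of all pairs of tested miRNAs were apart. The exact two-sided permutation p was 0.1 for each of the 4 and 0.113 adjusted over 36 pairs. Signal that a probe takes from a member 1 base away was not tested, since no probe sequences were used here.

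The miRNAs encoded beside let-7 genes were read as well. miR-100, miR-99a and miR-99b belong to one family and miR-125a and miR-125b to another, the latter related to lin-4, the first miRNA described in worms. Of 9 names of these families on the array 6 were tested; 3 were lower, 2 higher and 1 did not pass, against 20.7% and 44.1% of all tested miRNAs. Earlier results on these arrays were known when the list was written.

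On chromosome 17, where let-7e-5p maps to chr17:17830366-17830387 on the plus strand, Mir99b lies 94 bases from the let-7e gene on one side and Mir125a 367 bases from it on the other, all within the span of Spaca6. miR-125a-5p measured -2.82, -2.52 and -2.71 in skin and -1.35, -1.06 and -1.53 in wound, a rise of 1.37 (SE 0.15, adjusted p = 0.000841). miR-99b-5p measured -3.66, -3.43 and -3.60 in skin and -2.57, -2.68 and -2.63 in wound, a rise of 0.94 (SE 0.07, adjusted p = 0.000229). All 3 5p arms of this cluster were thus called higher in the main setting. miR-125a-5p was called higher under 5 of 5 scalings, miR-99b-5p and let-7e-5p under 2 of 5 each, and miR-99b-5p stayed above 0 in all 5 (0.25 at the lowest). miR-125a-3p was at the floor on all 3 skin arrays and did not pass (adjusted p = 0.138). It was called higher with the total signal per miRNA (1.84), a floor 4 times as low (1.48), without wound preparation 4 (0.18) and in the authors' deposited table matched by value (1.65).

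On the other two clusters the neighbours were lower. On chromosome 16, where let-7c-5p maps to chr16:77599672-77599693 on the plus strand, Mir99a lies 656 bases from let-7c-1. miR-99a-5p went from 1.38, 1.53 and 1.48 to 0.18, -0.06 and 0.06, a difference of -1.40 (SE 0.08, adjusted p = 6.14e-05). On chromosome 9 Mir100 lies 5211 bases from let-7a-2, within the span of Mir100hg. miR-100-5p went from -0.38, -0.23 and -0.27 to -2.05, -2.23 and -2.21, a difference of -1.87 (SE 0.07, adjusted p = 1.28e-05). miR-125b-5p, with a gene at the far end of each of these clusters, went from 2.94 ± 0.14 (SD, n = 3) to 1.54 ± 0.11, a difference of -1.40 (SE 0.10, adjusted p = 0.000142). Each of these neighbours was called lower under 5 of 5 scalings. With normexp background correction miR-100-5p was at -0.79 and lost its call (adjusted p = 0.174).

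**Figure D4:**
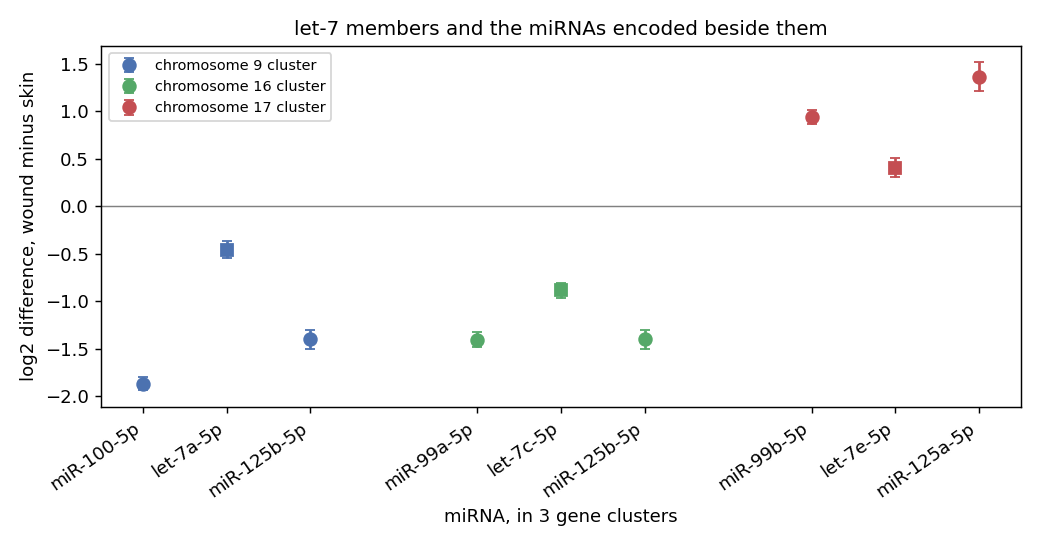
Log2 difference, wound minus skin (vertical axis), with its SE in limma, for the 5p arms encoded in the 3 clusters that join let-7 to miR-99, miR-100 and miR-125 genes (horizontal axis; squares are let-7 members, circles their neighbours). The chromosome 17 cluster lies above 0 in the main setting and the chromosome 9 and 16 clusters below it; miR-125b-5p is drawn in both of its clusters and let-7a-5p and let-7c-5p also have genes elsewhere.

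The sizes differed within each cluster. In the main setting the let-7 member moved less than the 5p arms of its neighbours in all 3, by 0.41 against 0.94 and 1.37 on chromosome 17, by -0.88 against -1.40 and -1.40 on chromosome 16, and by -0.45 against -1.87 and -1.40 on chromosome 9. These orderings were not tested, and that of chromosome 17 held under some of the other scalings but not all. It failed with quantile normalization, where let-7e-5p was at 0.43 and miR-99b-5p at 0.30. It also failed with the 75th percentile of all probes, where they were at -0.28 and 0.25. The ordering held with median scaling, where let-7e-5p was at -0.00042, miR-99b-5p at 0.53 and miR-125a-5p at 0.96. With no scaling it held too, at -0.17, 0.36 and 0.79 for the same miRNAs. let-7a-5p and let-7c-5p also receive signal from genes outside the clusters, which let-7e-5p does not in the RefSeq table.

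Outside the family, the 5 tested miRNAs whose pattern over the 6 arrays lay nearest to the mean of the 9 members were miR-148b-3p, miR-151-5p, miR-331-3p, miR-103-3p and miR-365-3p. Likeness was the root mean square distance between log2 profiles centred on their own means, which was 0.05 for miR-148b-3p and 0.10 for miR-365-3p. Of these miR-151-5p (-0.41, adjusted p = 0.0128) and miR-103-3p (-0.37, adjusted p = 0.0109) were called lower, and the other three differed by -0.24 to -0.33 without passing. Taken singly, 5 of the 9 members had a miRNA outside the family as their nearest. let-7b-5p was nearest to miR-30b-5p and let-7d-5p to miR-199a-5p, while let-7a-5p and miR-98-5p were nearest to each other.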

How the data were processed

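The labels describe RNA of 6 sorted cell preparations hybridised to Agilent miRNA arrays with the Cy3 dye. The scanner files hold intensity on a linear scale, written by Agilent Feature Extraction 10.7.3.1 per the file headers, with no normalization between arrays. A second deposited file gives log2 values; no source used here states how it was made. Of its 691 rows 656 were found by name in the scanner files, and each column equals the log2 total signal of 1 array minus a constant within 0.001.

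From the scanner files, the processed signal was averaged over spots without outlier flags for 1928 probes and divided by the array's 75th percentile (786 to 1772 intensity units, against a local background of 49.0 to 55.5) over the probes that passed the background flag on every array. The mean over the probes of each miRNA was raised to a floor of 0.0253 and taken to log2. 222 of 690 names, well above background on all arrays of at least 1 group, were tested with limma 3.58.1 (R 4.3.3, two-sided, Benjamini-Hochberg at 0.05), checked on simulated data. The number of arrays limits the precision, and 0 spots were saturated.

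Named are all members, all tested neighbours and the 5 miRNAs of most alike pattern. The members, lists and tests were chosen with earlier results of these data known. Alternatives covered scaling, background correction (normexp on median signals, offset 50), signal summary, floor, filter, limma options, slide row, each array left out and the authors' table. Matching that table by value, the alternatives for neighbours and those for the share of signal were added after seeing the data.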

Additional observations from a re-analysis of the deposited data

How the results depend on the processing

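No paired analysis was made, because the labels do not say whether any skin and wound preparations belong together. let-7b-5p, let-7c-5p and let-7g-5p were lower in wound under all 23 alternatives that set wound against skin (the authors' table by column number aside), and of those with a test they lost their call only with normexp background correction. The 2 within-row values have no test. Members called higher numbered 0 with the 75th percentile of all probes, median scaling, no scaling, normexp, the total signal per miRNA, no filter on dim miRNAs and the authors' table read either way, and 2 with quantile normalization; with an array left out they numbered 0 to 1. Members called lower numbered 0 with normexp in limma (2 members at an unadjusted p under 0.05) and 0 in the authors' table by column number, and 4 to 6 with an array left out. They numbered 5 with the higher floor, the lower floor and the filter on all arrays. With no filter on dim miRNAs they numbered 4, and let-7a-5p lost its call there (limma adjusted p = 0.0563). The family's median difference was -1.08 with the 75th percentile of all probes, -0.81 with median scaling, -0.25 with quantile normalization, -0.98 with no scaling, -0.55 with normexp, -0.65 with the total signal, -0.85 in the authors' table by value and 0.25 by column number; with an array left out it was -0.46 to -0.34. With normexp 0 members were called against the family mean, against 5 in the main setting. Neighbours called higher numbered 1 with the 75th percentile of all probes, quantile normalization and no scaling, and 0 with normexp and in the table by column number, where 0 were lower; they numbered 3 with the total signal, the lower floor and the authors' table by value, and 2 to 3 with an array left out. Neighbours called lower numbered 2 with normexp.

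Signs turned as follows. let-7e-5p was -0.28 with the 75th percentile of all probes, -0.00042 with median scaling, -0.17 with no scaling and -0.042 in the authors' table by value. let-7i-5p was -0.61, -0.34 and -0.51 under the same 3 scalings, -0.25 with normexp, -0.18 with the total signal, -0.043 with array weights and -0.38 in the authors' table by value; with an array left out it ran from -0.026 (without wound preparation 4) to 0.15. let-7d-5p was 0.060 with quantile normalization, -0.15 to 0.0036 with an array left out (the latter without skin preparation 2) and 0.24 relative to the family mean, where let-7f-5p was 0.046. With normexp miR-98-5p was 0.77, and against the family mean 1.17, where let-7f-5p was -0.17. In the authors' table by column number the values were 0.24 for let-7a-5p, 0.38 for let-7b-5p, 0.42 for let-7c-5p, 0.12 for let-7d-5p, -0.023 for let-7e-5p, 0.25 for let-7f-5p, 0.36 for let-7g-5p, 0.31 for miR-98-5p, 0.79 for miR-100-5p, -0.20 for miR-125a-3p, -0.47 for miR-125a-5p, 0.52 for miR-125b-5p, 0.67 for miR-99a-5p and -0.17 for miR-99b-5p, because that reading mixes arrays of both groups. The other causes were not tested.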
